A study of Mus musculus with 8 samples.

Results

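The genes described here are 10 identity genes of regulatory T cells: Foxp3, Ikzf2, Ikzf4, Il2ra, Tnfrsf4, Tnfrsf18, Nrp1, Izumo1r, Gpr83 and Itgb8. They were taken by symbol from the feature lists of the deposited matrices, where each of the 10 was found among 32285 features. Their transcripts were followed in CD4-gated T cells (at least 1 UMI of Cd4 and none of Cd8a or Cd8b1) and in CD8-gated T cells (the reverse), by library, and within the CD4 gate in cells with and without a Foxp3 UMI. A UMI, or unique molecular identifier, marks 1 captured transcript, and levels are given as CPM: a gene's summed UMIs in the cells of a class, per 1000000 UMIs of those cells, by library.

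The material was pancreatic T cells sorted as CD45+ CD3+ TCRβ+ out of NOD animals, an inbred line prone to spontaneous autoimmune diabetes, and sequenced as 8 droplet-based 3′ libraries. Every group consisted of spontaneously diabetic NOD mice, labelled female and 3 to 4 months old (3 to 5 months in the treatment protocol), and no group was free of disease. Active diabetes, with glucose over 600 mg/dl, gave 1 library, and onset, at 250 mg/dl, gave another. The other 6 came from new-onset mice (200 to 300 mg/dl) given either PPCA, which joins the MDM2 inhibitor nutlin-3 at 50 mg/kg and the WEE1 inhibitor MK-1775 at 25 mg/kg, or its ethanol, Tween and polyethylene glycol vehicle, with 1 library per arm on each of days 2, 3 and 4. The number of mice per library is not stated, so p-values measure the spread between libraries, and the cells were frozen after sorting and processed together.

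Regulatory T cells are CD4 T cells that restrain other lymphocytes, and they depend on the transcription factor Foxp3. They take up interleukin-2 through a receptor that includes Il2ra (CD25), carry receptors of the TNF receptor family, and activate latent TGF-β through the integrin chain Itgb8. In NOD mice their number and function in the pancreas are known to affect the course of the disease. Several of these genes are also switched on in conventional T cells after activation, so a single one does not define the cell type.

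The upstream sequences of 3 members are shown. They are Foxp3 and Tnfrsf18, the members with a match to a searched motif, and Il2ra, the member with the largest excess in Foxp3-detected cells. Each sequence is the 250 bases before an annotated start, on the strand of the gene, from RefSeq on GRCm38.p6. Capitals mark a match to the STAT motif TTCNNNGAA.
Foxp3, chrX:7580233-7580482, plus strand: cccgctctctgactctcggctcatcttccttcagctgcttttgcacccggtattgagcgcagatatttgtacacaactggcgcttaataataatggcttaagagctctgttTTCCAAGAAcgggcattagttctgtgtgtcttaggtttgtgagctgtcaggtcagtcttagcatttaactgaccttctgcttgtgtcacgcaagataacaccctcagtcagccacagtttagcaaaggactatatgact
Tnfrsf18, chr4:156026072-156026321, plus strand: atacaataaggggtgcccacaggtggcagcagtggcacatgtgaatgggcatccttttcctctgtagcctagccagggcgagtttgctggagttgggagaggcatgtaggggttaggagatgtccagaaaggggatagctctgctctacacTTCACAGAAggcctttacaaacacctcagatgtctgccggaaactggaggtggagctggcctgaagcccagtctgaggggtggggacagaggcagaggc
Il2ra, chr2:11642542-11642791, plus strand: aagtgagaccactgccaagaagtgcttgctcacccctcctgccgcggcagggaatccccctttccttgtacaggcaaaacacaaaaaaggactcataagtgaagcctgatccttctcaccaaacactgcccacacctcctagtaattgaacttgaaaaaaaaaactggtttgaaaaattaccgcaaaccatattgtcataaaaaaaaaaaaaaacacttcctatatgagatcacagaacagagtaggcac
RefSeq windows were found for 8 of the 10 members (2 starts for Foxp3), and not for Ikzf2 and Ikzf4. On both strands, TTCNNNGAA was present in 7.02% of all 32851 windows of this length, the forkhead motif GTAAACA in 3.17%, the AP-1 motif TGANTCA in 6.75% and the NF-kB motif GGANTTTCC in 1.07%. Among the 9 member windows the STAT motif was found in 1 of Foxp3 and in that of Tnfrsf18, and the other 3 motifs in none. In the same assembly Gpr83 and Izumo1r are direct neighbours on chromosome 9, and 2 gene models lie between Tnfrsf4 and Tnfrsf18 on chromosome 4.

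The libraries held 80470 cell barcodes and 419420275 UMIs, between 36934580 and 67603740 UMIs per library. After filters and removal of 6289 predicted doublets, 27502 cells were CD4-gated and 22176 CD8-gated. Foxp3 was detected in 99 to 208 CD4-gated cells per library, 1131 in all. Their median depth was 3523 to 5073 UMIs, against 3854 to 6180 in CD4-gated cells without Foxp3. Of all barcode sequences, 0.928% occurred in more than 1 library. The label of female mice did not hold throughout: vehicle on days 2 and 3, and PPCA on days 3 and 4, gave libraries that carried Y-linked transcripts (186 to 273 CPM) and almost no Xist, and the other 4 the reverse. T cell markers summed to 6520 to 7920 CPM in Foxp3-detected cells. B cell markers (4 genes) were at 3.6 to 10.6 CPM there and myeloid markers (4 genes) at 0 to 7.65 CPM. Markers of the pancreas (8 genes, Gcg and Sst at 0) ranged from 1.62 CPM in active diabetes to 177 CPM in the vehicle library of day 3. The T cell, B cell and myeloid levels were limited by the filter and do not measure purity. It required at least 2 UMIs of the same T cell genes. It also allowed no more than 1 UMI over Cd79a, Cd79b, Ms4a1, Lyz2, Csf1r and Itgam, which belong to these marker sets.

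Foxp3 transcripts were concentrated in the CD4 gate but sparse in every library. Foxp3 stood at 8.23 to 31.3 CPM in CD4-gated cells (median 17.2) and at 2.44 to 6.93 CPM in CD8-gated cells (median 3.42), higher in the CD4 gate in 8 of 8 libraries. The fitted difference was 2.24 on the log2 scale (SE 0.09, edgeR quasi-likelihood adjusted p = 2.48e-11). Across genes, 22.2% of 12657 were called higher and 22.8% lower in the CD4 gate by this test, and all 10 members were among the higher ones. Itgb8 differed by 2.39 (SE 0.30), Tnfrsf4 by 2.29 (SE 0.17), Izumo1r by 2.11 (SE 0.10), Il2ra by 2.03 (SE 0.10) and Gpr83 by 1.81 (SE 0.11). Nrp1, Ikzf2 and Ikzf4 differed less, by 1.47 (SE 0.18), 1.38 (SE 0.17) and 1.38 (SE 0.13). Tnfrsf18 was the least confined to the CD4 gate, with a difference of 0.42 (SE 0.04) and 73.1 to 88.1 CPM in CD8-gated cells. Sets of markers used for other cells differed between the gates too. B cell markers had a median of 16.2 CPM in the CD8 gate and 2.04 CPM in the CD4 gate. The set used for plasmacytoid dendritic cells (Siglech, Ccr9 and Cox6a2) had 94.5 and 3.38 CPM. Cox6a2 was at 0 in the CD4 gate, and the sum does not show which of the 3 genes carried the difference. The part of both sets in the result was not tested. In these sums fewer cells of a type and less RNA per cell cannot be told apart.

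At equal depth, Foxp3 was found in a few percent of CD4 cells. With each cell thinned to 2000 UMIs, Foxp3 was detected in 3.11%, 3.20% and 1.33% of CD4-gated cells in the vehicle libraries of days 2, 3 and 4, and in 4.08%, 2.94% and 2.32% in the PPCA libraries. The arms overlapped, PPCA being higher on days 2 and 4 and lower on day 3 at this depth. The direction on day 3 turned with the setting: at 1000 UMIs per cell it was 1.93% with PPCA and 1.82% with vehicle, and with at least 2 Foxp3 UMIs 1.22% and 1.14%. The group means were 2.54% ± 1.06 (SD, n = 3) with vehicle and 3.11% ± 0.893 (SD, n = 3) with PPCA. The mean difference over days was 0.571 percentage points (SD 0.714), with an exact two-sided sign-flip p of 0.5, where 3 days cannot go below 0.25. PPCA was higher on all 3 days, with that smallest p of 0.25, at 1000 UMIs, with at least 2 Foxp3 UMIs and with every barcode gated, and the difference ran from 0.236 to 0.882 points over the settings that kept all 3 days. Active diabetes and onset stood at 2.00% (exact 95% interval 1.52 to 2.59) and 1.99% (1.61 to 2.43), intervals that cover counting error only. CD8-gated cells gave 0.32% to 1.16% under the same thinning, below every CD4-gated share. Of the 124 CD8-gated cells with Foxp3 at this depth, 55 held at least 3 of the other members, against a median of 0.732% of all CD8-gated cells. What part of the CD8-gated share is background was not tested. The median depth of the CD8 gate before thinning was 4273 to 7238 UMIs, against 3851 to 6158 in the CD4 gate.

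**Figure D1:**
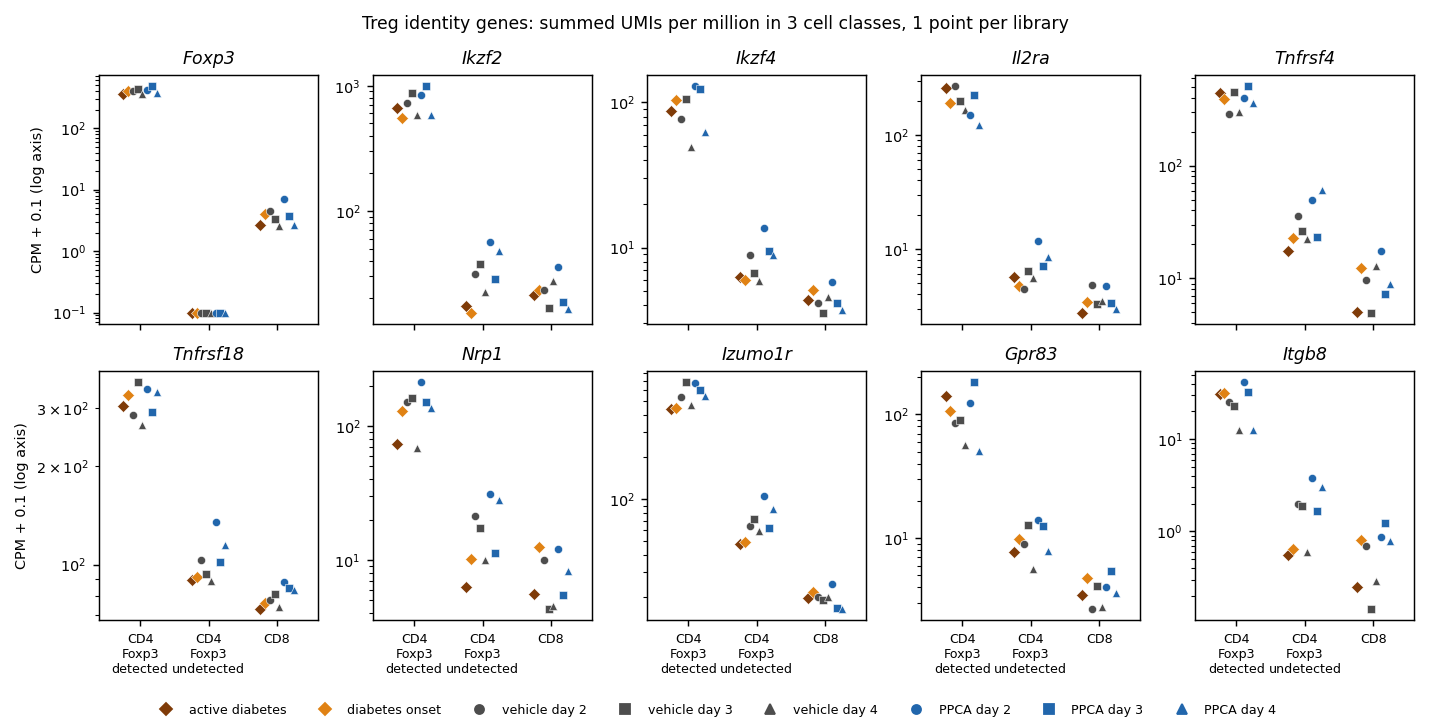
Levels of the 10 members (CPM + 0.1, log axis) in Foxp3-detected CD4, Foxp3-undetected CD4 and CD8 cells, with 1 point per library. The Foxp3-detected points of the 9 other members sit above the Foxp3-undetected points in all 8 libraries, with the smallest gap for Tnfrsf18, and Foxp3 is 0 in the second class by definition.

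Summed over cells, the Foxp3-detected class had higher levels of every other member. The comparison asked which genes were higher in these cells than in the other CD4-gated cells of the same library. All 9 other members rose, in 8 of 8 libraries each, while 13.7% of the 12354 genes tested were called higher and 16.8% lower. The median log2 difference was 3.29 over the 9 members and -0.05 over all genes tested. Foxp3 itself defines the classes and was not tested.

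The transcription factor partners of Foxp3 differed in size. Ikzf2 encodes Helios, a zinc finger factor of the Ikaros family, and was at 554 to 997 CPM (median 698) in Foxp3-detected cells and at 15.3 to 56.0 CPM (median 29.8) in the others. It was 20.2-fold higher, a log2 difference of 4.33 (SE 0.10, edgeR adjusted p = 1.24e-40). Ikzf4 encodes Eos, a partner of Foxp3 in silencing genes, and was at 49.5 to 130.1 CPM against 5.80 to 13.6 CPM. Its difference was 3.29 (SE 0.13, edgeR adjusted p = 3.75e-29). Neither gene overlapped between the classes, a measure for which no share over all genes was computed.

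The receptors for growth and costimulatory signals followed. Il2ra, the high-affinity chain of the interleukin-2 receptor, was at 123 to 270.3 CPM (median 194) against 4.32 to 11.6 CPM (median 5.93). At 25.5-fold, or 4.67 on the log2 scale (SE 0.13, edgeR adjusted p = 1.80e-35), it had the largest difference of the 9. Tnfrsf4 (OX40), a costimulatory receptor of the TNF receptor family, was at 288 to 508 CPM against 17.4 to 61.1 CPM, and differed by 3.43 (SE 0.12, edgeR adjusted p = 1.43e-31). Tnfrsf18 (GITR), its neighbour on chromosome 4, was at 267 to 361 CPM against 88.9 to 135 CPM. Its difference of 1.38 (SE 0.06, edgeR adjusted p = 2.98e-27), or 2.6-fold, was the smallest of the 9.

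The surface and adhesion members were higher as well. Izumo1r (folate receptor 4) was at 439.9 to 685 CPM against 47.8 to 105 CPM and differed by 2.78 (SE 0.06, edgeR adjusted p = 3.11e-41). Nrp1, a receptor for semaphorins used as a marker of thymus-derived regulatory T cells, was at 69.0 to 212 CPM against 6.24 to 31.0 CPM and differed by 2.83 (SE 0.11). Gpr83, a G protein-coupled receptor, was at 50.1 to 182 CPM against 5.51 to 13.9 CPM and differed by 3.12 (SE 0.12). Itgb8 was the scarcest, at 12.4 to 41.4 CPM against 0.449 to 3.72 CPM, and its 3.90 (SE 0.29) had the widest error. The adjusted p of these last 3 lay between 3.71e-29 and 2.74e-17 in edgeR.

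Each of the 9 remained past the threshold under all 19 alternative settings. In the 4 libraries without Y-linked transcripts the 9 differences ran from 1.40 (Tnfrsf18) to 4.62 (Il2ra), and in the 4 libraries with them from 1.39 to 4.76, with all 9 past the threshold in both. B cell markers were also at higher levels in Foxp3-detected cells (median 7.97 CPM against 1.79 CPM), as was the plasmacytoid dendritic set (13.9 CPM against 2.88 CPM, with Siglech and Cox6a2 at 0 in Foxp3-detected cells). Their part in the result was not tested.

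**Figure D2:**
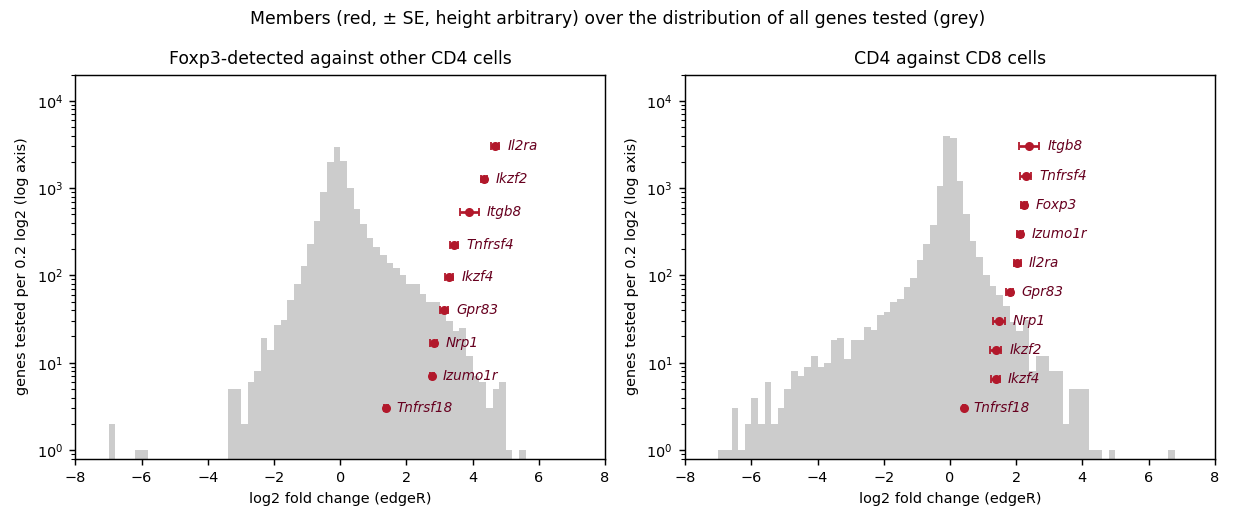
Distribution of log2 fold changes over all genes tested (grey, log axis) with the members marked in red with their SE, for Foxp3-detected against other CD4 cells (left) and CD4 against CD8 cells (right). Members run from 1.38 (Tnfrsf18) to 4.67 (Il2ra) on the left and from 0.42 (Tnfrsf18) to 2.39 (Itgb8) on the right, and their heights carry no value.

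The detection of members in single cells showed how tightly each went with Foxp3. At 2000 UMIs per cell, Ikzf2 was detected in a median of 62.5% of Foxp3-detected cells (47.9% to 77.9% over 8 libraries) and in 4.11% of the other CD4-gated cells (1.96% to 7.32%). For Izumo1r the medians were 58.7% and 9.45%, and for Tnfrsf4 38.7% and 4.51%. Tnfrsf18 was the least selective, at 44.8% and 17.6%. Il2ra was detected in 32.0% (20.6% to 43.5%) and 1.13% (0.802% to 2.35%), the largest ratio of medians of the 9. Gpr83 stood at 21.7% and 1.75%, Nrp1 at 19.8% and 2.63%, Ikzf4 at 19.4% and 1.72%, and Itgb8 at 3.38% and 0.295%. The share in Foxp3-detected cells was above that in the other cells in 8 of 8 libraries for 8 members and in 7 of 8 for Itgb8, which was in none of the 57 Foxp3-detected cells of active diabetes.

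Read the other way, most cells with a member had no Foxp3 UMI. Among CD4-gated cells with Il2ra, a median of 39.8% also had Foxp3 (23.3% to 63.5%). The share was 31.7% for Ikzf2, 24.6% for Gpr83, 23.4% for Ikzf4, 22.2% for Nrp1, 22.1% for Itgb8 (0% to 50.0%), 18.2% for Tnfrsf4, 14.4% for Izumo1r and 6.13% for Tnfrsf18. Foxp3 detection is itself limited by depth: of the 1131 Foxp3-detected cells, 543 had at least 2 Foxp3 UMIs before thinning.

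Cells with several members formed most of the Foxp3-detected class and a small part of the rest. At least 3 of the 9 other members were found in 419 of 685 Foxp3-detected cells after thinning, a median of 58.7% per library (51.7% to 71.2%). They were found in 856 of 26494 CD4-gated cells without Foxp3, a median of 3.23% (1.65% to 6.30%). In CD8-gated cells the count was 164 of 21867, a median of 0.732%. By number, therefore, more cells with at least 3 members lacked a Foxp3 UMI than had one. In the CD8-gated cells with Foxp3, Ikzf2 was detected in 47.6% against a median of 2.93% of all CD8-gated cells.

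**Figure D3:**
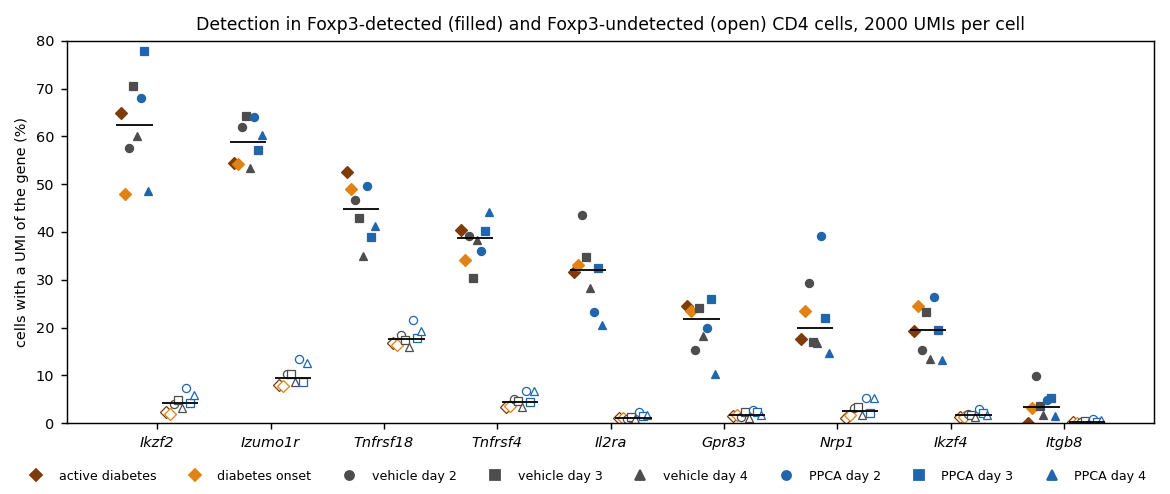
Share of CD4-gated cells with a UMI of each member (%) at 2000 UMIs per cell, by library, in Foxp3-detected (filled) and Foxp3-undetected cells (open), with a line at each median. Ikzf2 has medians of 62.5% and 4.11%, and Tnfrsf18, at 44.8% and 17.6%, has the smallest ratio.

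The deposited marker table of the authors also placed the members together. In the authors' deposited table the CD4 Treg cluster listed 567 genes, 9 of the 10 members among them, all but Itgb8. In the authors' deposited table Ikzf2 ranked first by log2 fold change, detected in 72.7% of that cluster and 3.1% of other cells, and Foxp3 was detected in 51.5% and 0.7%. The authors' deposited table also listed Nrp1, Tnfrsf4, Izumo1r, Ikzf2 and Tnfrsf18 for its Th17 cluster, where Nrp1 was detected in 33.8% of cells and 3.0% of others. Markers of clusters were chosen on these cells and are no independent test.

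The genes most like the members in this contrast came from several functions. Among genes with a mean of at least 20 CPM in Foxp3-detected cells and the same sign in 8 of 8 libraries, the highest outside the members were Areg, a growth factor used in tissue repair, with a log2 difference of 4.93 (SE 0.39), Lrrc32, which anchors latent TGF-β, with 4.91 (SE 0.33), Sdc4 with 4.89 (SE 0.26), and the integrin chain Itgae (CD103) with 4.88 (SE 0.24). Serpina3g, Cd83, Myo1e, Arhgap20, the non-coding RNA Flicr, whose gene adjoins Foxp3, and the chemokine receptor Ccr6 came next, from 4.06 down to 3.66. Over all 12351 gene symbols tested, with no such filter, Il2ra was number 12, Ikzf2 number 19, Itgb8 number 36 and Tnfrsf18 number 854 by fold change. With the same filter, which removes genes that fell below it in Foxp3-detected cells, the lowest were Pdlim4, Igfbp4, Dapl1, Pde3b and St6galnac2, which fell by 2.18 to 1.75 on the log2 scale. Igfbp4 was at 70.9 to 251 CPM in Foxp3-detected cells and at 382 to 570 CPM in the others.

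Genes around the interleukin-2 receptor went both ways, in a contrast that called 13.7% of all genes higher and 16.8% lower. Of 10 in the list, 5 rose, 2 fell (Il2rg and Jak1) and 3 did not pass the test, with a median difference of 0.31. The direction of both falls depended on the scaling: before TMM scaling the median of Il2rg was 365 CPM in Foxp3-detected and 331 CPM in other cells, and that of Jak1 558 and 537 CPM. Il2rb, the signalling chain that pairs with Il2ra, rose by 2.98 (SE 0.08), and the STAT5 target genes Socs2 and Cish, which damp cytokine signals, by 2.78 (SE 0.25) and 1.49 (SE 0.11). Jak3 rose by 0.69 (SE 0.16), and did not pass in the 4 libraries without Y-linked transcripts (edgeR adjusted p = 0.151). Of 8 genes tested in the list of ligands, adaptors and NF-kB subunits of the TNF receptor members, 4 rose and none fell. They were the adaptor Traf1 with 1.14 (SE 0.07) and the NF-kB subunits Nfkb2 with 0.96 (SE 0.12), Nfkb1 with 0.57 and Relb with 0.48, while the ligand Tnfsf4 was not called and Tnfsf18 was not tested. Relb did not pass under 2 of 19 alternatives, without the library block (edgeR adjusted p = 0.123) and in the libraries without Y-linked transcripts.

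All 14 suppressive effector genes tested rose, with a median of 2.88, beside the 13.7% of all genes called higher and 16.8% called lower. Beside Areg and Lrrc32 these included Ebi3, a cytokine subunit, with 4.07 (SE 0.40) and Il10 with 3.75 (SE 0.39), the latter higher in 7 of 8 libraries. Among 13 tissue surface genes 10 rose and 3 fell, among the latter Ccr7 and S1pr1, which guide T cells into and out of lymph nodes. Klrg1 had the largest difference, 5.59 (SE 0.53), but at 0 to 27.6 CPM against 0 to 0.926 CPM. Among 19 transcription factors 9 rose and 6 fell, with Maf at 2.53 (SE 0.09) and Ikzf3 at 1.41 (SE 0.09) against Lef1 at -1.56 (SE 0.06). Of 9 conventional CD4 genes tested, 6 fell and 1, Cxcr5, rose by 3.17 (SE 0.28), and the falls were led by Igfbp4, Dapl1 and Il21 (-1.87, SE 0.47). Il21 did not pass under 2 of 19 alternatives, without the library block (edgeR adjusted p = 0.194) and in the 4 libraries with Y-linked transcripts.

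No member passed the test for treatment in the whole CD4 gate. All 10 members had a positive estimate for PPCA against vehicle there, from 0.20 (Il2ra) to 0.94 (Itgb8), and 0 of 10 were called, where 0.0% of 11938 genes were called by edgeR (795 at an unadjusted p under 0.05, and 34 by DESeq2). Foxp3 was at 20.0, 22.3 and 8.23 CPM with vehicle on days 2, 3 and 4 and at 31.3, 21.5 and 14.4 CPM with PPCA. Day 3 thus ran against days 2 and 4, and the arms overlapped. Ikzf2 had the same order, with 65.6, 80.5 and 35.3 CPM with vehicle and 115, 71.3 and 68.7 CPM with PPCA. Ikzf4 came nearest to a call, at 12.2, 11.7 and 6.81 CPM with vehicle and 22.3, 14.4 and 10.8 CPM with PPCA. Its estimate was 0.53 (SE 0.17) with an edgeR adjusted p of 0.696. No member's CPM in the 2 arms was without overlap in the CD4 gate, where 4.67% of genes were.

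Within Foxp3-detected cells the members did not pass the test either. None of 9 was called, where 0.232% of 7319 genes were (17, and 0 by DESeq2), and 8 of 9 estimates were positive. Gpr83 had the highest, 0.53 (SE 0.20, edgeR adjusted p = 0.697), with 85.4, 90.1 and 56.6 CPM with vehicle and 123, 182 and 50.1 CPM with PPCA. Il2ra had the only negative one, -0.39 (SE 0.19, edgeR adjusted p = 0.821), with 270.3, 197 and 166 CPM with vehicle and 151, 227 and 123 CPM with PPCA. The arms overlapped for both, as for all 9, while 8.54% of genes had none. Among the genes fitted with Y-linked transcripts as a further factor, 35 were called in place of 17, and no member.

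In CD4-gated cells without Foxp3 all 9 estimates were positive, from 0.21 (Tnfrsf18) to 0.99 (Itgb8), and none was called, where 0.0% of 11792 genes were (795 at an unadjusted p under 0.05, and 37 by DESeq2). Il2ra was at 4.32, 6.30 and 5.47 CPM with vehicle and at 11.6, 7.04 and 8.34 CPM with PPCA. It was the 1 member of 9 without overlap between arms, as were 4.65% of genes. After TMM scaling its day 3 difference was -0.02, so the order on that day depended on the scaling. Its estimate was 0.64 (SE 0.27, edgeR adjusted p = 0.737). The share of these cells with at least 3 members was 3.00%, 3.86% and 1.99% with vehicle and 6.30%, 3.46% and 5.24% with PPCA, higher on days 2 and 4 and lower on day 3.

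CD8-gated cells gave 7 positive and 3 negative estimates, with 0 of 10 members called and 0.0167% of 11969 genes. Tnfrsf18 (77.9, 81.2 and 74.1 CPM with vehicle and 88.1, 84.7 and 83.7 CPM with PPCA) and Itgb8 did not overlap between arms, 2 of 10 members against 4.19% of genes. Itgb8 rested on 61 UMIs over the 8 libraries. For Tnfrsf18 the estimate was 0.05 (SE 0.09) after TMM scaling.

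**Figure D4:**
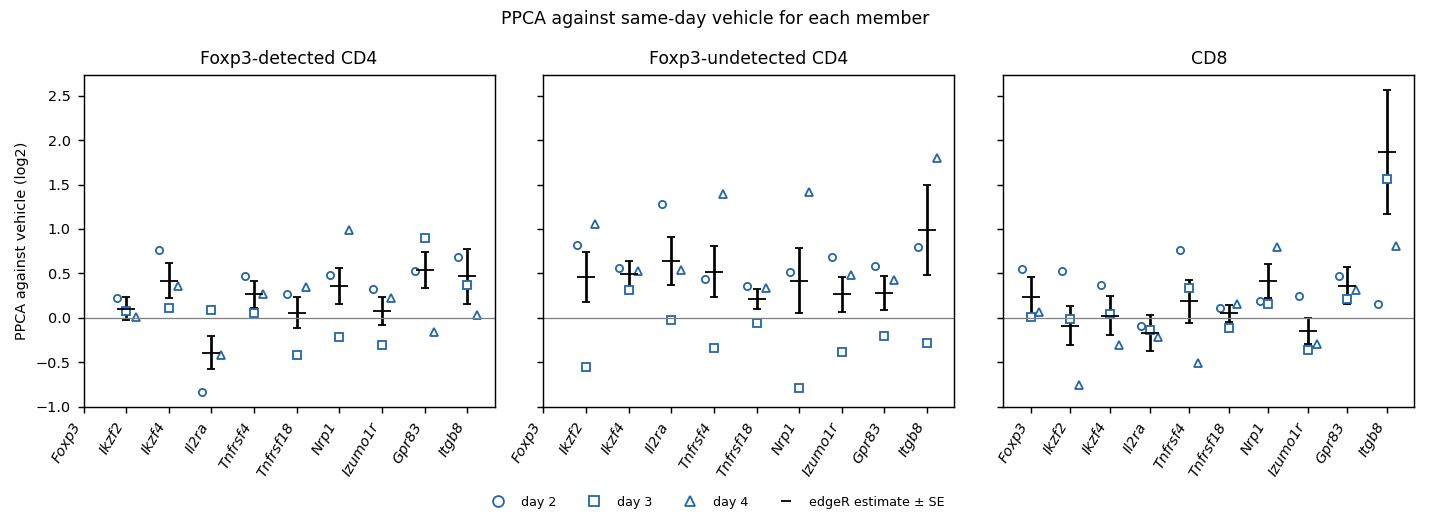
PPCA against same-day vehicle (log2 ratio of TMM-scaled CPM, open symbols by day) with the edgeR estimate ± SE (black) for each member in Foxp3-detected CD4, Foxp3-undetected CD4 and CD8 cells. In Foxp3-undetected cells the day 3 points of 8 of the 9 members lie below 0, and Foxp3 has no estimate in the first 2 panels because it defines their classes.

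The excess of a member in Foxp3-detected over other CD4 cells was then compared between treatments, as a class by treatment term. One member of 9, Il2ra, was called, where 0.258% of 11998 genes were (31, of which 27 were lower and 4 higher). Its excess was smaller with PPCA by 1.04 on the log2 scale (-1.04, SE 0.21, edgeR adjusted p = 0.00198). The ratio of its CPM between the classes was 62.6, 31.3 and 30.4 with vehicle on days 2, 3 and 4, and 13.1, 32.2 and 14.8 with PPCA. The ratio was therefore lower on days 2 and 4 and not on day 3, and the arms overlapped. Depth differed between the arms: median UMIs of Foxp3-undetected cells were 5104, 5271 and 5021 with vehicle and 4144, 4574 and 3854 with PPCA. In Foxp3-detected cells they were 4427, 4696 and 4818 with vehicle and 4100, 3661 and 3523 with PPCA. This term was not fitted at equal depth, and the part of depth in it was not tested.

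The call rested on day 2. Without that day the Il2ra term was -0.43 with an adjusted p of 1.0, without the vehicle library of day 2 it was -0.71 (adjusted p = 0.261) and without the PPCA library of day 2 it was -0.76 (adjusted p = 0.377). DESeq2 gave -1.04 (adjusted p = 0.9999) and limma-voom -1.05 (adjusted p = 0.550). With Y-linked transcripts by class as a further term it was -0.98 (adjusted p = 0.000915). On day 3, the only day on which both arms carried Y-linked transcripts, the TMM-scaled difference was 0.09. Of the other 8 members 7 had a negative term and Gpr83 a positive one (0.28, SE 0.24), none past the threshold.

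Some context genes had a lower ratio with PPCA on all 3 days. Ctla4 is an inhibitory receptor that regulatory T cells use to remove costimulatory ligands. Its class ratio was 18.8, 16.7 and 12.1 with vehicle and 7.79, 11.5 and 5.85 with PPCA. The Ctla4 term was -0.996 (SE 0.14, edgeR adjusted p = 1.05e-07) and passed under all 18 alternatives, none of them at equal depth. Both levels of Ctla4 were highest on day 4 with PPCA, at 1040 CPM in Foxp3-detected and 177 CPM in the other cells. The ratio of Socs2 was 11.5, 14.0 and 16.3 with vehicle and 2.09, 4.27 and 1.45 with PPCA, with a term of -2.56 (SE 0.35). Il10 (-3.08, SE 0.64), Icos (-0.91, SE 0.18) and Maf (-0.69, SE 0.13) were also called lower. That gave 3 of 14 suppressive effectors, 1 of 10 interleukin-2 signalling genes and 1 of 19 transcription factors, and none called higher in these lists. Over all 11998 genes the term called 0.258%, 27 lower and 4 higher. The smallest adjusted p in edgeR, 9.35e-17 for S100a6 and 6.43e-16 for S100a4, lay outside these lists, both lower with PPCA. Il10 passed under 15 of 18 alternatives and was lost without day 4 or either of its libraries (edgeR adjusted p up to 0.592), and it was at 0 CPM in Foxp3-detected cells with PPCA on day 3. Icos passed under 14 and was lost in DESeq2, in limma-voom and without day 3 or its vehicle library (adjusted p up to 0.929). Maf passed under 16 and was lost in limma-voom and without day 4 (adjusted p up to 0.219). Pancreas markers in Foxp3-detected cells were at 26.8, 177 and 3.54 CPM with vehicle and 55.9, 18.0 and 37.6 CPM with PPCA. Myeloid markers there rested on a few UMIs per library and were lower with PPCA on all 3 days, at 6.38, 3.00 and 3.54 CPM with vehicle and 1.93, 1.80 and 0 CPM with PPCA. In the Foxp3-undetected cells they were at 4.59, 5.05 and 6.26 CPM and at 4.65, 3.81 and 6.31 CPM. The part of either set in these terms was not tested.

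**Figure D5:**
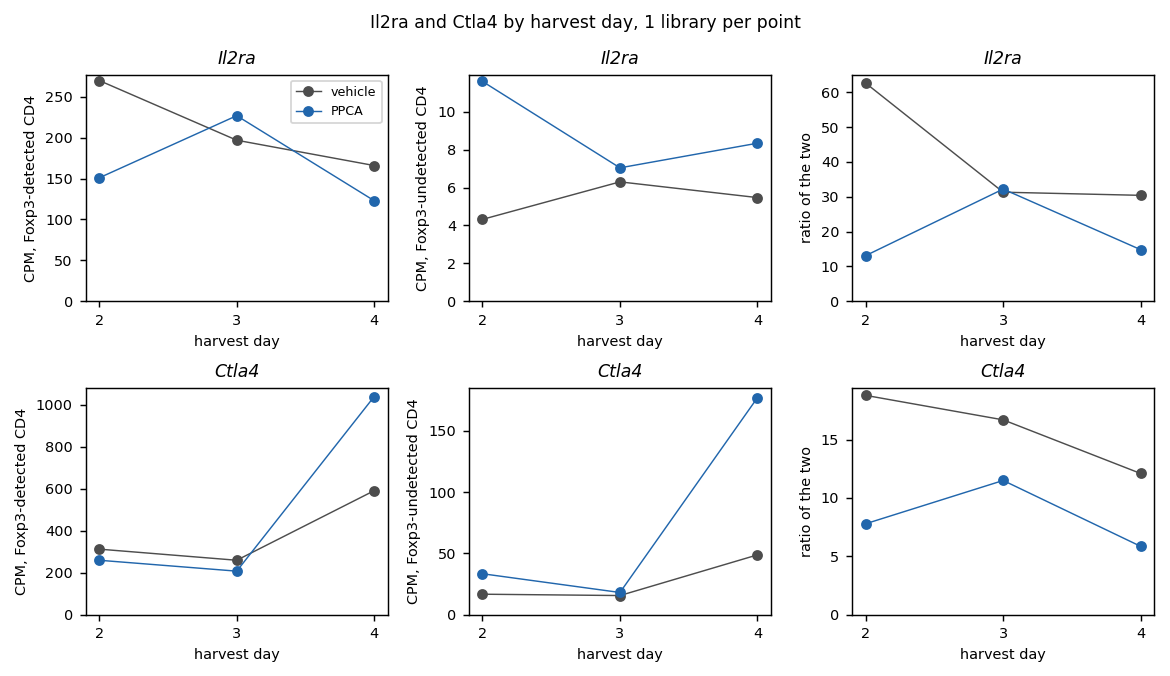
CPM of Il2ra (top) and Ctla4 (bottom) in Foxp3-detected and Foxp3-undetected CD4 cells and the ratio of both levels, by harvest day, with 1 library per point. The ratio for Il2ra is lower with PPCA on days 2 and 4 and not on day 3, and that for Ctla4 is lower on all 3 days.

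Active diabetes and onset had 1 library each, so their difference has no replicate check. No member reached a 2-fold gap in any class while standing at 50 CPM or more in one of both libraries, where 0.829% of genes were in CD4-gated, 1.74% in CD8-gated, 2.87% in Foxp3-detected and 0.834% in Foxp3-undetected cells. Below that level the CD8 gate held wider gaps, for which no share over all genes was computed. Tnfrsf4 was at 4.93 CPM (98 UMIs) in active diabetes and 12.2 CPM (139 UMIs) at onset there, a log2 ratio of -1.31 with a 95% counting interval of -1.70 to -0.93. Nrp1 was at 5.49 and 12.3 CPM, a ratio of -1.17 (-1.54 to -0.80). After TMM scaling with 0.5 added these ratios were -1.18 and -1.05. Itgb8 had only 3 and 8 UMIs, and its ratio was -2.22 before and -0.86 after that scaling. Nrp1 also had the largest difference in Foxp3-detected cells, at 73.0 CPM (45 UMIs) in active diabetes and 130.1 CPM (102 UMIs) at onset, a log2 ratio of -0.83 with a 95% counting interval of -1.37 to -0.31. It was also lower in active diabetes in Foxp3-undetected cells (6.24 and 10.1 CPM). Il2ra was at 261 and 190.0 CPM in Foxp3-detected cells, a log2 ratio of 0.46 (0.13 to 0.79), and Ikzf2 at 667 and 554 CPM, a ratio of 0.27 (0.07 to 0.47). The intervals of the other 6 members, and of Foxp3, included 0 in that class.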

How the data were processed

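T cells of 8 libraries were measured. The authors deposited raw UMI counts per gene and barcode. Per the file headers these came from Cell Ranger 6.0.0, whereas the submitters' processing notes name Cell Ranger 6.1.2 and Seurat. For the counts, the genome build is not given in the sources used here. Beside them, the authors' deposited marker table gives a log2 fold change, an adjusted p-value and, per cluster, the fraction of its cells that hold a gene, from a test not stated.

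The members and lists were chosen with earlier results of these data known. Cells were kept with at least 500 genes, under 10% mitochondrial UMIs, 2 or more UMIs of the 6 T cell receptor complex genes (Trac, Trbc1, Trbc2, Cd3d, Cd3e, Cd3g) and no more than 1 UMI of 6 genes of B and myeloid cells (Itgam, Csf1r, Lyz2, Ms4a1, Cd79a, Cd79b). Scrublet in scanpy 1.11.5 scored doublets, and the top 0.8% per 1000 barcodes of a library were removed. Counts were summed per library and class and fitted in edgeR 4.0.16 (quasi-likelihood, TMM, filterByExpr) with Benjamini-Hochberg adjustment over all genes tested and a threshold of 0.05. The fit was checked on simulated data. Library was a block in contrasts between classes, and harvest day in contrasts of treatment, which left 7 and 2 residual degrees of freedom (4 for the class by treatment term). The labels give the day of each library. Same-day libraries deviated together from their arm means, with correlations across genes of 0.429, 0.495 and 0.644 (CD4 gate), 0.472, 0.643 and 0.672 (CD8 gate) and 0.145, 0.113 and 0.283 (Foxp3-detected) for days 2, 3 and 4. Without the replicate block the calls fell from 17 to 0 in Foxp3-detected and from 2 to 0 in CD8-gated cells, and in the contrasts between classes from 3762 to 2005 and from 5702 to 2002.

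Shares of cells were taken after thinning each cell to 2000 UMIs without shallower cells. Intervals are exact (Clopper-Pearson or Poisson, 95%). Fold changes by day are ratios of TMM-scaled CPM with 0.5 added. Named genes were all members in every comparison, the up to 4 largest differences per list past the threshold, and the 10 highest and 5 lowest other genes with at least 20 CPM and one sign in 8 libraries, without receptor segments, Gm and Rik models and mitochondrial genes. Alternatives used DESeq2 1.42.0 and limma 3.58.1. Markers of plasmacytoid dendritic cells (3 genes, Siglech and Cox6a2 at 0) were at 0 to 40.8 CPM and of endothelium (3 genes, Kdr at 0) at 52.2 to 115 CPM in Foxp3-detected cells. Values of some list genes are not reported here.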

Additional observations from a re-analysis of the deposited data

Results flagged for a closer look

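The excess of Il2ra in Foxp3-detected over other CD4-gated cells differed between treatments by a test of the difference itself, at -1.04 on the log2 scale, with a lower class ratio on 2 of 3 days. It no longer passed the threshold in DESeq2 (-1.04) and limma-voom (-1.05), which gave nearly the same size, nor without day 2, where it was -0.43, and its cause was not tested.

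A Foxp3 signal also appeared in T cells that no comparison used, those with no UMI of Cd4, Cd8a or Cd8b1. Foxp3 was detected in 1041 of 17619 such cells, a median of 7.10% per library (3.30% to 8.64%), before thinning. The share was above that of the CD4 gate (median 4.19%) and of the CD8 gate (0.708% to 2.10%) in 8 of 8 libraries. The cells were not deeper than the gated ones, with 3490 to 5495 UMIs at the median. A further 152 Foxp3-detected cells had both Cd4 and CD8 UMIs.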

How the results depend on the processing

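The differences of the members between cell classes kept their direction and stayed past the threshold under all alternatives run, 19 for each member between Foxp3-detected and other cells and 17 between the gates. No member was called for PPCA against vehicle under any alternative run, 11 or 12 per member in each class and 10 for Itgb8 in the CD8 gate. Depth limits the classes: with 99 to 208 Foxp3-detected cells per library, a regulatory T cell without a Foxp3 UMI counts as Foxp3-undetected.

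Between Foxp3-detected and other cells 3762 genes were called, against 2005 with no replicate block, 2213 and 2424 in the 4 libraries without and with Y-linked transcripts, and 2174 after thinning, and 3303 to 3531 without one library. Between the gates the 5702 calls fell to 2002 with no replicate block, with 5159 to 5491 without one library. For PPCA in the CD4 gate the 0 calls became 34 in DESeq2, 126 without the low-count filter, 5 with Y-linked transcripts as a factor and 0 to 126 without one day. In Foxp3-undetected cells they became 37, 126, 21 and 0 to 29 in the same order. In the CD8 gate the 2 calls became 39, 133, 396 and 0 to 369, and 0 with doublets kept, with every barcode gated or with no replicate block. In Foxp3-detected cells the 17 calls became 0 in DESeq2, 55 without the filter, 1 with doublets kept, 0 with no replicate block, 35 with Y-linked transcripts and 13 to 27 without one day. For the class by treatment term the 31 calls became 11 in DESeq2, 8 in limma-voom, 51 with every barcode gated, 48 with a class by day term, 22 to 46 without one day and 26 to 58 without one library. The class by day, class by Y-linked and single-library fits of this term were chosen after seeing the data. Leaving out the block changed no member's call in the contrasts between classes or of treatment within a class, and was not run for the class by treatment term. The mean difference in the Foxp3 share was 0.358 to 0.983 percentage points without one day. The share of Foxp3-detected cells with at least 3 members rose from 58.7% to 73.6% without thinning.

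Directions that reversed were all of members not called in the fit reported, and the cause was not tested. In the CD8 gate Ikzf2 became 0.061 with doublets kept and 0.084 with every barcode gated, and Il2ra 0.072 and 0.096. Without one day Ikzf2 ran from -0.39 to 0.26, Ikzf4 from -0.15 to 0.22, Tnfrsf4 from -0.12 to 0.59 and Tnfrsf18 from -0.0052 to 0.14. In Foxp3-detected cells with at least 2 Foxp3 UMIs Ikzf2 became -0.11, Tnfrsf18 -0.21 and Izumo1r -0.0026. Without one day Tnfrsf18 ran from -0.065 to 0.31 and Izumo1r from -0.051 to 0.28. In Foxp3-undetected cells Nrp1 ran from -0.099 to 0.98. For the class by treatment term, leaving out one day or library gave -0.31 to 0.25 for Ikzf4, -0.79 to 0.084 for Tnfrsf4, -0.37 to 0.22 for Nrp1, -0.24 to 0.54 for Gpr83 and -0.95 to 0.15 for Itgb8. Nrp1 became 0.065 with the class by day term and Itgb8 0.042 with at least 2 Foxp3 UMIs. In that term Ikzf2 passed the threshold under 3 and Tnfrsf4 under 2 of 18 alternatives, and Il2ra under 13.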

Other observations

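Within Foxp3-detected cells, PPCA against vehicle called 17 genes, 12 lower and 5 higher, and all those named here were chosen after their values were seen. Of the cell division genes called lower, Birc5 was at 8.93, 15.0 and 35.4 CPM with vehicle on days 2, 3 and 4 and at 0 in all 3 PPCA libraries, so that no fold is given. Mki67 was at 29.3, 36.1 and 17.7 CPM with vehicle and at 5.78, 0 and 2.09 CPM with PPCA. The galectins Lgals3 and Lgals1 fell by 2.72 (SE 0.42) and 1.35 (SE 0.27) on the log2 scale, and Ccr2 and Socs2 by 1.495 (SE 0.26) and 1.44 (SE 0.27). Myeloid markers in the same cells were at 6.38, 3.00 and 3.54 CPM with vehicle and at 1.93, 1.80 and 0 CPM with PPCA, and their part in these changes was not tested. Il7r, the interleukin-7 receptor, rose by 0.93 (SE 0.17), and the interferon-response genes Ifit3, Ifit1 and Isg15 rose by 3.74 (SE 0.65), 1.90 (SE 0.34) and 1.33 (SE 0.26), on all 3 days except Ifit3 (2 of 3). Transcripts that can follow RNA quality were called as well: the ribosomal RNA-overlapping model Gm42418 at -1.25 (SE 0.19), the mitochondrial mt-Co3 at -0.75 (SE 0.12) and mt-Atp8 at 0.80 (SE 0.15), and Rpl13a at -0.64 (SE 0.13). Gm42418 was at 13700, 40700 and 26700 CPM with vehicle and at 7880, 9430 and 15500 CPM with PPCA, and its part in the other changes was not tested. The adjusted p of these 14 genes lay between 0.025 and 0.0497 in edgeR. None of the 17 was called by DESeq2 or without the day block.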
